A study of Mus musculus with 6 samples.

Results

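Cadherins and protocadherins are the calcium-dependent cell adhesion proteins encoded by genes whose symbols read Cdh or Pcdh. The group was chosen by symbol alone, as Cdh followed by digits or any symbol that starts with Pcdh, and it held 92 of the 29267 gene identifiers in the tables. Of these, 35 were unclustered genes and 57 belonged to the Pcdha (14), Pcdhb (22) and Pcdhg (21) gene clusters. The unclustered genes were 5 type I and 13 type II classical cadherins, 5 atypical cadherins, 4 delta-1 and 5 delta-2 protocadherins and 3 other protocadherins. Their expression was measured by RNA sequencing in cultured neural stem cells of OG2 mice at passage 8. The cells were either differentiated, a state the labels call D2, or undifferentiated neural stem cells, called NSC below. Each state was sequenced with naloxone, an opioid receptor antagonist, with DAMGO, a synthetic enkephalin analogue that activates mu opioid receptors, and as a control. Each of the 6 groups was 1 library of the same strain and passage, and the labels do not say whether libraries came from separate cultures or what the D2 protocol was. Values per library below are in the order naloxone, DAMGO, control.

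Classical cadherins join neighbouring cells by binding the same cadherin on the other cell, and their tails attach to the actin skeleton through beta-catenin, alpha-catenin and p120-catenin. Neural stem cells depend on N-cadherin (Cdh2) at the adherens junctions of the ventricular surface. Delta protocadherins have weaker adhesion and signal through partners such as the WAVE complex, which drives branched actin assembly. In the Pcdha and Pcdhg clusters each gene has its own first exon and promoter, spliced to constant exons that all genes of that cluster share. Pcdhb genes are single-exon genes without such a constant part. In neurons each cell uses a few of the alternate genes by promoter choice, which CTCF and cohesin carry out, while the C-type genes at the end of the Pcdha and Pcdhg clusters are used more uniformly. The combination of isoforms is known for self-avoidance of neurites.

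The 250 bases before the start of 4 unclustered members are shown, and their part in the changes between states was not tested. Pcdh8 and Pcdh15 were the largest rises with an entry, Cdh24 the largest fall with an entry, and Pcdh10 the highest mean TPM over all 6 libraries among the unclustered members. They are RefSeq promoters on build GRCm38.p6, read 5′ to 3′ on the strand of the gene: chr14:79771313-79771562 on the minus strand, chr10:73821617-73821866 on the plus strand, chr3:45378148-45378397 on the plus strand and chr14:54641365-54641614 on the minus strand. Capitals mark the TATA box (searched as TATAAA), the CCAAT box (searched as CCAAT) and the GC box (searched as GGGCGG), each on either strand.
Pcdh8: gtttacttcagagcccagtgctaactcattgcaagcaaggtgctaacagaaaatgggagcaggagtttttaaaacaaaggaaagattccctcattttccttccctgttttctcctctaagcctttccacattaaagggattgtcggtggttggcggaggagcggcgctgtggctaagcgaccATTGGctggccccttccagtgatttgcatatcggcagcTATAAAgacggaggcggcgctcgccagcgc
Pcdh15: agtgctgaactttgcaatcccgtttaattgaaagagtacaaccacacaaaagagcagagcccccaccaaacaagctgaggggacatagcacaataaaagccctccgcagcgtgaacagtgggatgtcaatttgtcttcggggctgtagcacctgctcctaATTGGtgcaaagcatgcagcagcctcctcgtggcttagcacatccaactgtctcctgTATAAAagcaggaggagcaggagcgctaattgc
Pcdh10: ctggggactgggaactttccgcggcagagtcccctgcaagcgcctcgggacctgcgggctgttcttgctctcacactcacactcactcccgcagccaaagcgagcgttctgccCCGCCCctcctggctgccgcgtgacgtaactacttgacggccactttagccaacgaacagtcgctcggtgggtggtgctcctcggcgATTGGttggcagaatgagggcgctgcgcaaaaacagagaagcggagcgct
Cdh24: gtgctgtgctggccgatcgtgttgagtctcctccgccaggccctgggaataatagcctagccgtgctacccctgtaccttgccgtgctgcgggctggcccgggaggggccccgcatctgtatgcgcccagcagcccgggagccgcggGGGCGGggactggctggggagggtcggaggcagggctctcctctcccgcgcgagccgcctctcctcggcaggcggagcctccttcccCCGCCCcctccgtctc
The Pcdh15 entry lies inside the gene's longest annotated span and marks one of its starts, and a non-coding gene on the other strand overlaps 154 exonic bases of Pcdh10. Promoter entries were found for 22 members, 13 of them tested below. The TATA box letters stood in 2 of the 22, Pcdh8 and Pcdh15, and in 12.4% of all 32851 promoter entries in the same 250 bases. The CCAAT box stood in 14 of the 22 members and 33.8% of all entries, the GC box in 9 and 32.7%, and the E-box (searched as CANNTG, on either strand) in 12 and 66.2%. The runs in capitals did not overlap one another. The number of CG pairs was 11 in Pcdh8, 6 in Pcdh15, 22 in Pcdh10 and 22 in Cdh24, against a median of 6 over all entries. A match is one of letters and shows no binding.

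Library totals were 8417074 to 10218353 expected counts in D2 and 9112916 to 13561237 in NSC. The members took 0.493 to 0.514% of a library's counts in D2 and 0.275 to 0.280% in NSC. Their summed level was 2679 ± 73.6 TPM in D2 and 1398 ± 25.7 TPM in NSC (SD, n = 3 libraries each). The 3 libraries of a state differ in ligand and stand in for replicates. Each SD here and below thus includes any ligand difference and is not a spread of replicates. TPM counts transcripts after correction for their length and scaling to a fixed library total, so that levels can be compared between genes. CPM is reads scaled to a fixed total without the length correction. Astrocyte markers rose in D2 (10 of 10), as did oligodendrocyte-lineage markers (8 rose and 1 fell of 9 tested). Of 10 neural stem cell markers 6 rose and 4 fell, among the fallen Mki67, a marker of cycling cells. Summed neural stem cell markers were at 5615 to 5990 CPM in D2 and 8381 to 8457 CPM in NSC. Over all tested genes 40.0% rose and 39.8% fell. Of 8 tested neuron markers 3 rose and 2 fell, with 3 risen and 0 fallen when either one of the DAMGO libraries was left out. Summed endothelial markers were at 4.01 to 5.19 CPM in D2 and 7.38 to 7.82 CPM in NSC, and summed epithelial markers were at most 1.06 CPM. The part of these shifts in cell makeup in the changes below was not tested, and in bulk RNA fewer cells of a type and less RNA per cell cannot be told apart.

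The first comparison asks how cadherin expression differed between differentiated and undifferentiated cells. Of 72 members with a mean of at least 10 counts, 60 rose in D2, 8 fell and 4 were not called (edgeR quasi-likelihood test, additive model of state and ligand, Benjamini-Hochberg adjusted p under 0.05 over 13216 genes). Over all tested genes 79.8% were called, 40.0% risen and 39.8% fallen, so that being called was common, and 80.9% passed an unadjusted p under 0.05. Among members 94.4% were called and 83.3% rose. Their median log2 fold change was 1.32, against 0.00 over all tested genes. Reads were divided between the clustered genes by estimation, so these shares do not rest on 72 separate measurements. The closing section gives the counts with each cluster as 1 row. The TPM of the 3 D2 and 3 NSC libraries did not overlap for 67 of the 72 members, beside 79.0% of all tested genes. A lack of overlap named for a gene below is thus common in these libraries. The clustered genes gave most of the rises. Of 52 tested clustered genes, 49 rose, 1 fell and 2 were not called, with a median of 1.46, whereas of 20 tested unclustered genes 11 rose, 7 fell and 2 were not called, with a median of 0.17. A rise of at least 2-fold was seen for 43 members, 3 of them unclustered, against 15.9% of all tested genes, and a fall of at least 2-fold for 1 member, Cdh19, against 18.0%. These counts include 5 members that passed the count filter through 1 state only, Cdh19 through NSC and Pcdha2, Pcdha3, Pcdha5 and Pcdha7 through D2. Of the 67 members that passed in both states 56 rose and 7 fell, 39 rose at least 2-fold and 0 fell at least 2-fold. Since separate cultures are not stated, a p-value here reflects no more than the scatter among 6 libraries, which may be technical. The plot of changes by family shows each member's value.

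**Figure D1:**
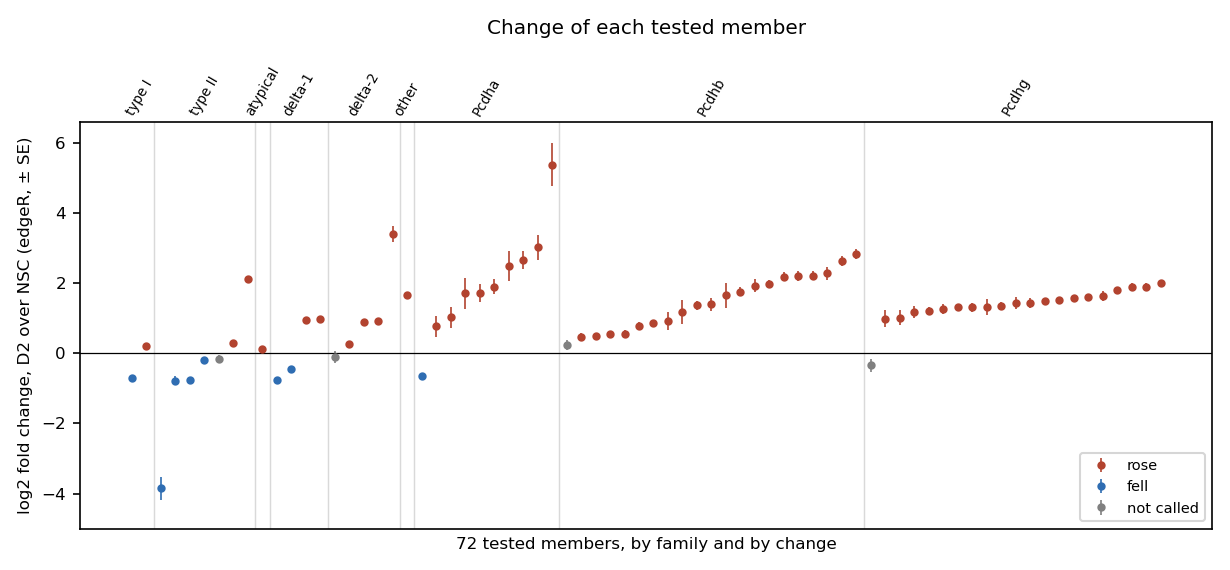
Change of the 72 tested members between D2 and NSC as log2 fold change (vertical axis, D2 over NSC, edgeR) with its SE as a bar, grouped by family and sorted within a family; colours mark genes that rose, fell or were not called. The clustered genes sit above 0 except Pcdhac2 and Pcdhgc5, while the classical and delta families lie on both sides.

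Among type I classical cadherins, Cdh2 (N-cadherin) and Cdh4 (R-cadherin, its close relative in the nervous system) moved in opposite directions. Cdh2 had 177, 158 and 170 TPM in the D2 libraries and 146, 143 and 149 TPM in the NSC libraries. It rose by a log2 fold change of 0.20 ± 0.05 (SE, edgeR adjusted p = 0.00219), which is 1.15-fold. The libraries of the 2 states did not overlap, but the gap was small beside the level. Cdh4 had 66.9, 60.7 and 66.3 TPM in D2 and 109, 103 and 104 TPM in NSC. It fell by 0.70 ± 0.05 on the log2 scale (SE, edgeR adjusted p = 5.56e-08), and every D2 library was well below every NSC library. Summed over the family, type I cadherins were at 234 ± 13.0 TPM in D2 and 251 ± 4.48 TPM in NSC (SD, n = 3). Cdh1 (E-cadherin, the epithelial cadherin) had 5, 5 and 2 counts in D2 and 0 in each NSC library, and Cdh3 and Cdh15 had at most 3 counts in any library, so none was tested. These cells thus had counts for N- and R-cadherin and next to none for E-cadherin in both states.

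Type II classical cadherins changed the most among unclustered cadherins, in both directions. Cdh11 (OB-cadherin, known from mesenchymal and bone-forming cells and from the developing brain) had 42.3, 39.8 and 42.5 TPM in D2 and 9.14, 10.7 and 8.84 TPM in NSC. All D2 libraries stood far above all NSC libraries, a rise of 2.12 ± 0.08 in log2 (SE, edgeR adjusted p = 2.79e-10) or 4.34-fold. Summed fibroblast and pericyte markers, cells that also express Cdh11, were lower in D2, at 50.8 to 60.3 CPM against 136 to 153 CPM in NSC, although 3 of the 7 tested rose and 1 fell (3 to 6 risen and 1 to 3 fallen without any 1 library), and their part in the rise was not tested. Cdh19, known from the Schwann cell lineage and other neural crest glia, went the other way. It had 6, 4 and 2 counts in D2 and 90, 64 and 61 counts in NSC, or 0.46, 0.25 and 0.11 TPM in D2 against 3.96, 3.97 and 3.6 TPM in NSC. The fall was 3.85 ± 0.33 on the log2 scale (SE, edgeR adjusted p = 4.12e-07), which as a fitted value of a gene with few D2 counts depends on the prior count, and Cdh19 passed the count filter only through its NSC level.

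Cdh20 was the most abundant type II cadherin, with 74.9, 69.1 and 72.7 TPM in D2 and 79.1, 85.7 and 79.3 TPM in NSC. It fell by 0.18 ± 0.06 in log2 (SE, edgeR adjusted p = 0.0127), a small change that was not called with either limma fit or without either DAMGO library. Cdh22 fell by 0.75 and Cdh24 by 0.78 on the log2 scale, to means of 16.4 ± 1.96 and 8.29 ± 0.868 TPM in D2 against 27.4 ± 0.734 and 14.2 ± 0.918 TPM in NSC (SD, n = 3). Cdh10 rose by 0.28 ± 0.08 (SE, edgeR adjusted p = 0.00633), and this call was lost in DESeq2 and both limma fits. Cdh6 had 11.6, 11.1 and 10.4 TPM in D2 and 13.1, 12.8 and 10.8 TPM in NSC and was not called (log2 fold change -0.16, edgeR adjusted p = 0.218). Cdh5 (VE-cadherin of endothelial junctions), Cdh7, Cdh8, Cdh9, Cdh12 and Cdh18 had at most 2 counts in any library, and Cdh8 and Cdh9 had 0 in all 6. The summed type II level was 175 ± 3.42 TPM in D2 and 169 ± 4.11 TPM in NSC (SD, n = 3), and the libraries of the 2 states overlapped.

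**Figure D2:**
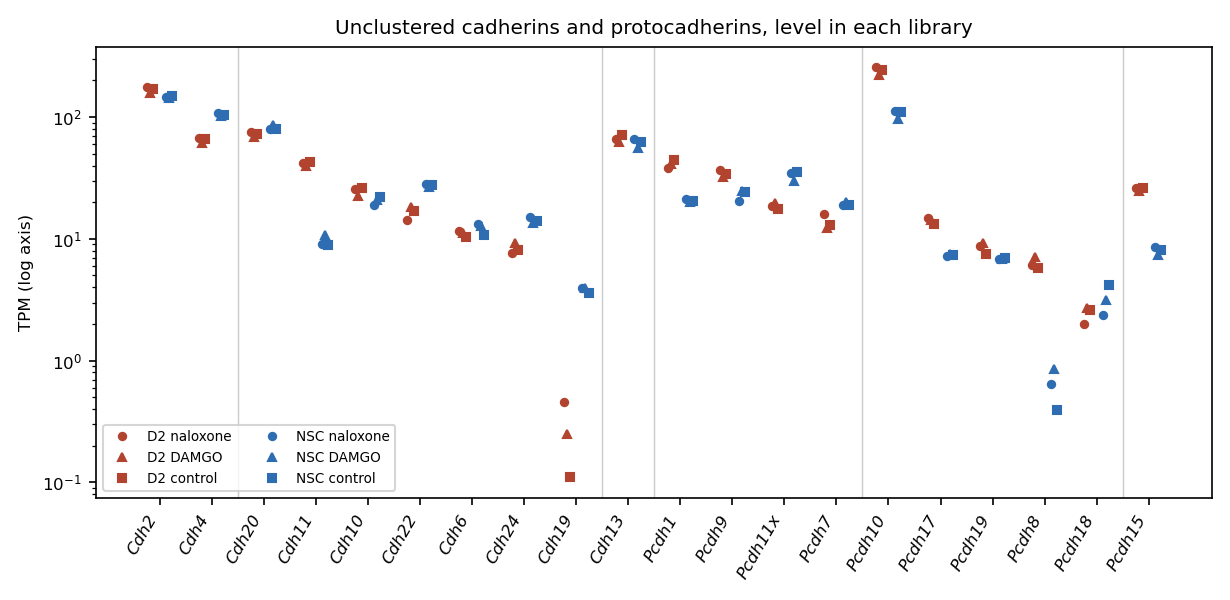
Level of the 20 tested unclustered members in each of the 6 libraries, as TPM on a log axis, with D2 (red) left of NSC (blue) for each gene and the marker shape giving the ligand; grey lines part the families. Pcdh10, Cdh2, Cdh4, Cdh20 and Cdh13 are the most abundant, Cdh11, Pcdh8 and Pcdh15 stand far higher in D2, and Cdh19 far lower.

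Atypical cadherins were represented by 1 tested gene. Cdh13 (T-cadherin, anchored to the membrane by a lipid and lacking the tail that binds catenins) had 66.4, 62.9 and 71.1 TPM in D2 and 65.6, 55.6 and 62.0 TPM in NSC, and the states overlapped. Its log2 fold change was 0.13 ± 0.06 (SE, edgeR adjusted p = 0.047), a call that was lost in 12 of 15 alternatives. Cdh16, Cdh17, Cdh23 and Cdh26 had at most 8 counts in any library.

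All 4 delta-1 protocadherins were tested and all were called, 2 in each direction. Of all tested genes 79.8% were called, about as many risen as fallen. Pcdh1 had 38.4, 41.0 and 44.2 TPM in D2 and 21.3, 20.1 and 20.3 TPM in NSC, a rise of 0.98 ± 0.07 in log2 (SE, edgeR adjusted p = 1.2e-07). Pcdh9 rose by 0.97 ± 0.08 on counts, while its TPM averaged 34.3 ± 2.26 in D2 and 23.2 ± 2.34 in NSC (SD, n = 3), a smaller ratio. Pcdh11x fell by 0.75, to 18.6 ± 1.23 TPM in D2 against 33.3 ± 3.11 TPM in NSC, and Pcdh7 fell by 0.45, to 13.8 ± 1.89 TPM in D2 against 19.3 ± 0.694 TPM in NSC (SD, n = 3). The family's summed level was 108 ± 2.13 TPM in D2 and 96.3 ± 2.14 TPM in NSC. Pcdh7 overlaps an antisense gene over 2235 exonic bases, and the library kit does not keep strand.

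Delta-2 protocadherins mostly rose, 4 of 5 tested with 1 not called, beside 40.0% of all tested genes that rose. The size of the rise was uneven, from 0.28 for Pcdh19 to 3.40 for Pcdh8 in log2. Pcdh10, a protocadherin that recruits the WAVE complex to cell contacts, was the most abundant unclustered member in D2, and below Cdh2 in NSC, with 255, 221 and 244 TPM in D2 and 112, 97.0 and 110 TPM in NSC. Every D2 library stood far above every NSC library, and the rise was 0.89 ± 0.05 in log2 (SE, edgeR adjusted p = 8.03e-09), or 1.85-fold. Pcdh8, which in rat neurons is induced by activity and drives internalisation of N-cadherin, rose the most of the unclustered members. It had 92, 112 and 106 counts in D2 and 15, 13 and 7 counts in NSC, or 6.14, 7.11 and 5.78 TPM in D2 against 0.64, 0.85 and 0.39 TPM in NSC. The change was 3.40 ± 0.22 in log2 (SE, edgeR adjusted p = 2.72e-08), about 10.6-fold. The gene spans chr14:79766775-79771312 on GRCm38, and its promoter is the first sequence shown above, with a TATA box match and 11 CG pairs.

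Pcdh17 rose by 0.93 in log2, to 14.1 ± 0.786 TPM in D2 against 7.35 ± 0.175 TPM in NSC (SD, n = 3). Pcdh19, which pairs with N-cadherin and causes an epilepsy in humans when mutated, rose by 0.28 ± 0.08 (SE, edgeR adjusted p = 0.0078), a call lost in DESeq2, in both limma fits and without either DAMGO library. Pcdh18 had 2.01, 2.71 and 2.59 TPM in D2 and 2.35, 3.13 and 4.17 TPM in NSC, overlapping between the states, and was not called (log2 fold change -0.11, edgeR adjusted p = 0.584). Of the other protocadherins, Pcdh15, a component of the tip links of hair cells that is also expressed by oligodendrocyte precursors, had 26.2, 24.7 and 25.9 TPM in D2 and 8.52, 7.31 and 8.13 TPM in NSC. It rose by 1.66 ± 0.08 in log2 (SE, edgeR adjusted p = 2.37e-09), or 3.17-fold, with no overlap between the states. Oligodendrocyte-lineage markers were higher in the same libraries, at 6220 to 6986 CPM in D2 against 3258 to 3381 CPM in NSC for their sum, and their part in the rise was not tested. Cdh23, the tip-link partner of Pcdh15, had at most 8 counts in any library. Pcdh12, an endothelial protocadherin, and Pcdh20 had at most 2.

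The clustered genes lie side by side on chromosome 18, and their counts need care because reads in shared exons were divided between genes by estimation. All Pcdha genes share 2860 bases or slightly more of exon, and Pcdhg genes share 2116 to 3157 bases. Of the unclustered members 30 of 35 had whole-number expected counts in all 6 libraries, within a tolerance of 0.005, against 1 of 57 clustered members (Pcdhb1, which was not tested). Each cluster was therefore also fitted as 1 summed row. The fit used summed counts, which do not depend on how reads were divided inside a cluster. The summed TPM below does depend on it, through the lengths of the transcripts. In CPM, without the length correction, the Pcdhg sum was 2723 ± 93.5 in D2 and 1050 ± 24.8 in NSC (SD, n = 3). The Pcdhg sum was 1488, 1489 and 1554 TPM in D2 and 584, 555 and 578 TPM in NSC, and rose by 1.37 ± 0.04 in log2 (SE, edgeR adjusted p = 2.25e-11), or 2.59-fold. The Pcdhb sum was 273, 247 and 272 TPM in D2 and 96.2, 106 and 99.2 TPM in NSC, a rise of 1.24 ± 0.06 (SE, edgeR adjusted p = 8.23e-10). The Pcdha sum was far lower, at 24.7, 21.9 and 22.0 TPM in D2 and 14.4, 14.4 and 13.4 TPM in NSC, and rose by 0.61 ± 0.07 (SE, edgeR adjusted p = 4.73e-06). In none of the 3 sums did a D2 library overlap with an NSC library.

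Within the Pcdha cluster the C-type gene Pcdhac2 and the alternate genes moved apart. Pcdhac2, the last gene of the cluster, had 144, 146 and 175 counts in D2 and 351, 260 and 271 counts in NSC, which is 6.45, 6.13 and 6.37 TPM in D2 against 9.64, 10.7 and 9.5 TPM in NSC. It fell by 0.66 ± 0.09 in log2 (SE, edgeR adjusted p = 4.18e-05) and was the only clustered gene called as fallen. The alternate genes together had 344, 313 and 361 counts in D2 and 142, 72 and 98 counts in NSC. Pcdhac1, also a C-type gene, did not go the way of Pcdhac2. It had 11, 14 and 16 counts in D2 and 11, 5 and 0 counts in NSC, too few to test. Without Pcdhac1 and Pcdhac2 the summed cluster rose by 2.0 ± 0.10 in log2 (SE, edgeR adjusted p = 2.02e-09), against 0.61 with them; this split was chosen after the values were seen. Pcdhac2 accordingly made up 28.9, 30.9 and 31.7% of the cluster's counts in D2 and 69.6, 77.2 and 73.5% in NSC. These shares did not overlap, and an exact two-sided permutation test of 3 libraries against 3 cannot give a p below 0.1. The shares also rest on how reads in shared exons were divided between genes.

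The alternate Pcdha genes were individually low, none above 4.26 TPM in any library, and all 9 that were tested rose. Pcdha12 had 4.26, 2.88 and 3.24 TPM in D2 and 1.36, 0.6 and 0.78 TPM in NSC, a rise of 1.91 ± 0.21 (SE, edgeR adjusted p = 3.38e-06). Pcdha9 rose by 2.66 ± 0.26, with 55, 79 and 64 counts in D2 and 16, 8 and 13 counts in NSC. Pcdha4 averaged 2.29 ± 0.687 TPM in D2 and 0.633 ± 0.178 TPM in NSC (SD, n = 3), a rise of 1.73 in log2. Pcdha7 had 38, 36 and 25 counts in D2 and 8, 5 and 2 counts in NSC, a rise of 3.03 ± 0.36 (SE, edgeR adjusted p = 7.36e-06). Pcdha2 had 29, 24 and 26 counts in D2 and 2, 0 and 0 counts in NSC. Pooled over libraries that is a ratio of 47.7 with an exact 95% interval of 12.8 to 400.5 that covers counting error only. Pcdha3 rose by 2.49 and Pcdha5 by 1.72. Pcdha2, Pcdha3, Pcdha5 and Pcdha7 passed the filter only through D2, and Pcdha1, Pcdha6, Pcdha8 and Pcdhac1 had too few counts to test.

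**Figure D3:**
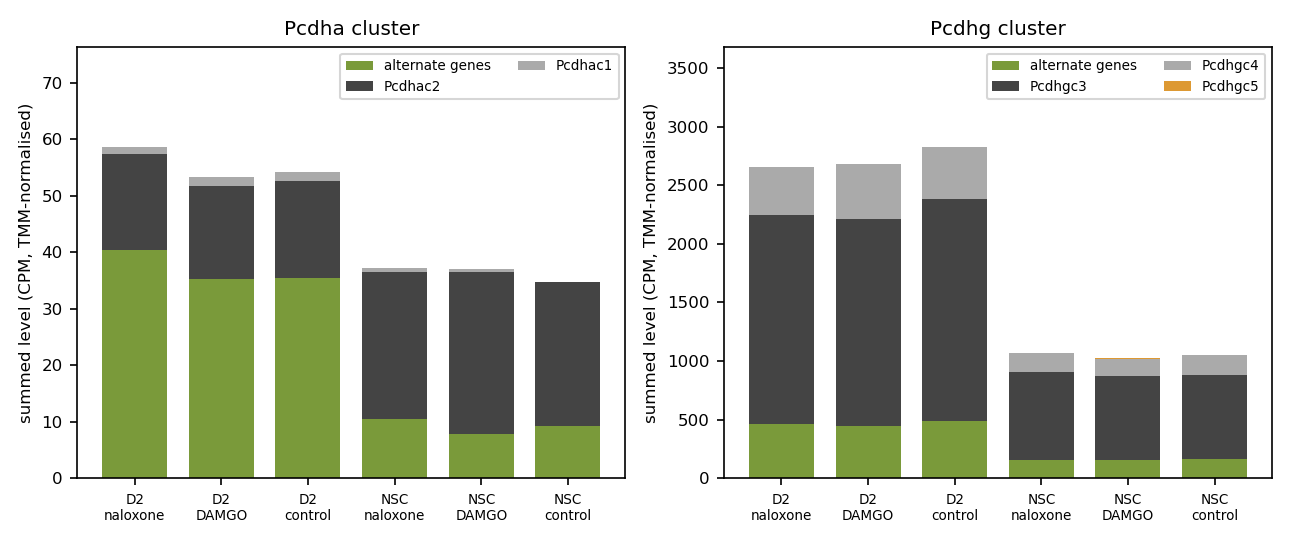
Summed level of the Pcdha cluster (left) and the Pcdhg cluster (right) in each library as stacked bars of TMM-normalised CPM, D2 libraries left of NSC libraries, split into the alternate genes and the C-type genes. The alternate genes form most of the Pcdha bar in D2 and the smaller part in NSC, while the Pcdhg bar is mostly Pcdhgc3 in all 6 libraries.

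Most counts of the Pcdhg cluster were assigned to 2 of its C-type genes in both states, an assignment that rests on how shared reads were divided. Pcdhgc3 had 855, 825 and 891 TPM in D2 and 352, 338 and 340 TPM in NSC, the highest level of all members, and rose by 1.31 ± 0.04 in log2 (SE, edgeR adjusted p = 5.52e-11). It made up 65.9 to 67.1% of the cluster's counts in D2 and 68.7 to 70.1% in NSC. Pcdhgc4, which in mice is the Pcdhg isoform needed for neuron survival, was read as 405, 455 and 431 TPM in D2 and 154, 141 and 160 TPM in NSC, a rise of 1.48 ± 0.06 (SE, edgeR adjusted p = 7.62e-10). Its abundance-weighted transcript length was 2288 to 2320 bases in all 6 libraries, close to a transcript of 2272 bases of which 93.3% is shared with other Pcdhg genes, so this value rests mainly on shared exons. Pcdhgc5, the third C-type gene, was not called, with 40, 35 and 42 counts in D2 and 77, 53 and 50 counts in NSC (log2 fold change -0.34, edgeR adjusted p = 0.123).

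All 18 alternate Pcdhg genes rose, by 0.99 to 1.99 in log2, a narrow range beside that of Pcdha. Pcdhga7 had 25.1, 24.8 and 26.0 TPM in D2 and 5.56, 6.98 and 6.08 TPM in NSC, the largest rise of the cluster at 1.99 ± 0.09 (SE, edgeR adjusted p = 7.28e-10). Pcdhga3 averaged 22.2 ± 1.13 TPM in D2 and 7.61 ± 0.545 TPM in NSC, and Pcdhga2 averaged 13.9 ± 0.686 TPM in D2 and 3.7 ± 0.495 TPM in NSC (SD, n = 3). Alternate genes made up 16.5 to 17.4% of the cluster's counts in D2 and 14.7 to 15.2% in NSC, shares that rest on the same division of shared reads. Without all 3 C-type genes the summed Pcdhg rise was 1.56 ± 0.05 (SE, edgeR adjusted p = 3.75e-11), and with the antisense gene BC037039, which overlaps Pcdhgc3 over 1559 exonic bases, added to the sum it was 1.37, as without it.

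Pcdhb genes have no constant exons in common, and only Pcdhb21 and Pcdhb22 shared annotated bases (455), but their coding sequences are alike and no tested Pcdhb gene had whole-number expected counts in all 6 libraries. Of 21 tested, 20 rose and Pcdhb21 was not called; Pcdhb1 had at most 1 count in any library. Pcdhb8 was the most abundant in D2, though not in NSC, with 33.0, 24.4 and 31.8 TPM in D2 and 4.96, 9.28 and 7.42 TPM in NSC. It rose by 2.64 ± 0.14 in log2 on counts (SE, edgeR adjusted p = 5.05e-09). Pcdhb9 rose the most, with 15.6, 16.6 and 22.1 TPM in D2 and 2.56, 2.36 and 2.61 TPM in NSC, a change of 2.83 ± 0.14 (SE, edgeR adjusted p = 2.42e-09) or 7.09-fold. Pcdhb10 and Pcdhb11 rose by 2.19 and 1.97 to means of 23.9 ± 3.2 and 22.1 ± 1.67 TPM in D2 against 5.2 ± 0.588 and 5.63 ± 0.684 TPM in NSC (SD, n = 3). Pcdhb20, near the other end of the cluster, had 20.8, 20.1 and 20.9 TPM in D2 and 10.7, 12.7 and 10.6 TPM in NSC, a rise of 0.86 ± 0.09 (SE, edgeR adjusted p = 2.87e-06). Pcdhb21 had 9.47, 6.56 and 5.96 TPM in D2 and 6.06, 6.66 and 5.68 TPM in NSC, overlapping between the states (log2 fold change 0.24, edgeR adjusted p = 0.121), and became a call without the D2 DAMGO or the NSC control library.

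The rise was larger in the 5′ part of the Pcdhb cluster than in its 3′ part, but it did not change steadily along the order. In log2 it was 1.93 for Pcdhb2, 1.40 for Pcdhb4 and largest, at 2.83, for Pcdhb9. Further on it was 0.56 for Pcdhb16 and 0.86 for Pcdhb20. The tested genes were also split into the first 11 and the last 10, a split not set in advance that only describes these values. The first 11 from the 5′ end, Pcdhb2 to Pcdhb12, had log2 fold changes of 1.40 to 2.83 with a median of 2.19. The last 10, Pcdhb13 to Pcdhb22, had 0.24 to 1.37 with a median of 0.67. These fitted ranges nearly touched, and the ratios of single libraries overlapped, as for Pcdhb4 at 1.19 and Pcdhb14 at 1.46 between the control libraries. The first 11 summed to 170 TPM in D2 and 40.7 TPM in NSC, and the last 10 to 94.1 TPM in D2 and 59.8 TPM in NSC. The 5′ group was thus the lower one in NSC and the higher one in D2. Across the 21 genes the correlation of change with order was -0.81 (Pearson) and -0.82 (Spearman), given as a description, since the genes share libraries and their neighbours. It was -0.62 and -0.63 over 21 Pcdhg genes, and -0.73 and -0.64 over 10 Pcdha genes, where the last gene, Pcdhac2, adds to it. Pcdha2, Pcdha3, Pcdha5 and Pcdha7, at places 2, 3, 5 and 7 of the order, passed the count filter only through D2. The filter thus favoured large rises near that end, and the Pcdha values are no separate support for a pattern. Over the alternate genes alone the correlation was -0.66 (Pearson) and -0.63 (Spearman) for 18 Pcdhg genes. For 9 alternate Pcdha genes it was -0.60 (Pearson) and -0.50 (Spearman).

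**Figure D4:**
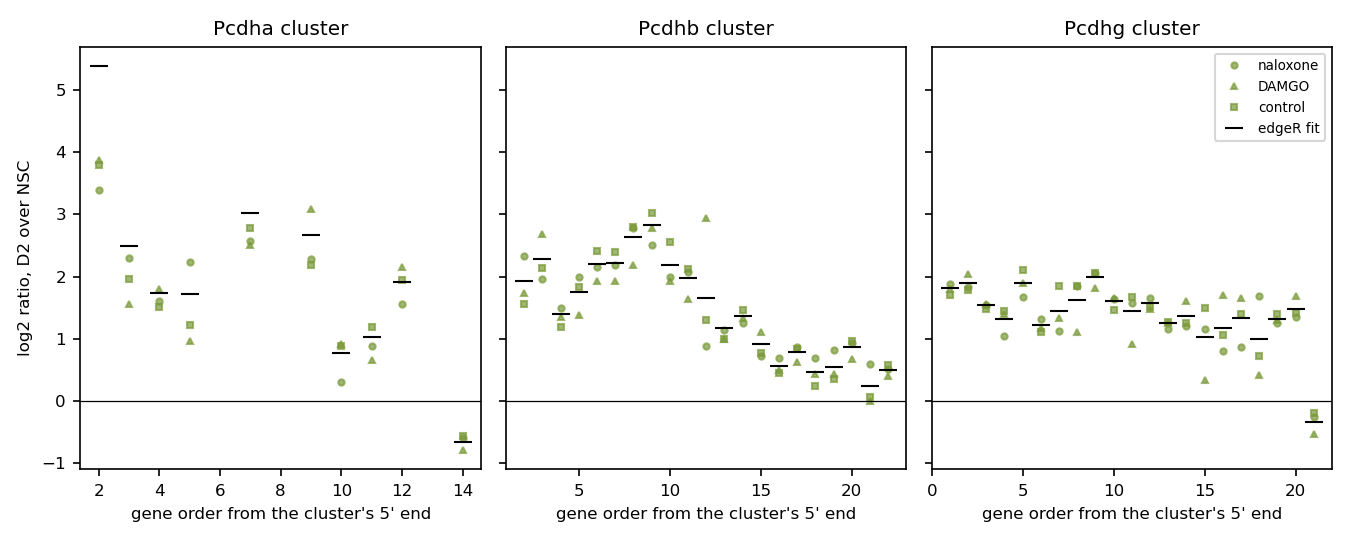
Log2 ratio of D2 over NSC (vertical axis) of each tested gene against its order from the 5′ end of its cluster, for naloxone, DAMGO and control libraries (green markers) with the edgeR value as a black dash. In Pcdhb the edgeR values of the first 11 genes lie between 1.40 and 2.83 and those of the last 10 between 0.24 and 1.37, while the markers of single libraries spread beyond these bounds; the last genes of Pcdha and Pcdhg are Pcdhac2 and Pcdhgc5, below 0.

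Genes that work with cadherins were compared in the same fit, and the counts of each list stand beside the 40.0% of all tested genes that rose and the 39.8% that fell. Of 9 tested catenins and plakophilins, which link cadherin tails to the skeleton, 8 rose and 1 fell, with a median of 0.65. Ctnnb1 (beta-catenin) had a mean of 1169 ± 37.2 TPM in D2 and 752 ± 12.3 TPM in NSC (SD, n = 3). Ctnna1 rose by 0.45, Ctnna2, the neural alpha-catenin, by 2.23 and Arvcf, a p120-related catenin, by 2.59, while Pkp4 fell by 1.24. Of 13 tested giant, seven-pass and other superfamily cadherins 7 rose and 4 fell, with a median of 0.40. Celsr1, a seven-pass cadherin of planar cell polarity, had 41.8 ± 1.59 TPM in D2 and 1.34 ± 0.0666 TPM in NSC (SD, n = 3), a rise of 4.96 in log2. Cdhr1 fell by 3.8, Clstn1 rose by 0.85, and Fat1 had 114 ± 4.32 TPM in D2 and 122 ± 3.79 TPM in NSC without a call. Of 9 genes for shedding and processing of cadherins 6 rose and 3 fell, with a median of 0.48, among them Mmp14 (up by 1.63), Psen2 (up by 1.47), Aph1a (up by 0.55) and Mmp15 (down, at -0.80).

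Transcription factors that repress the E-cadherin gene fell or were not called, with 3 of 4 tested fallen and a median of -0.81. Zeb1 had 227 ± 23.0 TPM in D2 and 444 ± 14.4 TPM in NSC, and Tcf4 had 172 ± 17.5 TPM in D2 and 323 ± 5.45 TPM in NSC (SD, n = 3). Of 11 tested genes of the WAVE complex and of kinases bound by protocadherins 5 rose and 5 fell, with a median of -0.04, shares near those of all tested genes. Brk1 rose by 0.53, Abi2 fell by 1.29, Ptk2 (focal adhesion kinase) fell by 1.22 and Fyn fell by 0.14 on the log2 scale. Chromatin regulators known to act on the protocadherin clusters went mostly down, with 14 of 17 fallen, 3 risen and a median of -1.56, beside 39.8% fallen and 40.0% risen of all tested genes. The cohesin subunit Smc3 had 15.6 ± 2.75 TPM in D2 and 119 ± 4.26 TPM in NSC, and Stag2 had 18.6 ± 5.18 TPM in D2 and 137 ± 8.73 TPM in NSC (SD, n = 3). Rad21 fell by 1.11 and Smc1a by 2.13 in log2, and Ctcf, named after its values were seen, fell by 0.44, to 109 ± 0.947 TPM in D2 against 148 ± 4.61 TPM in NSC. Cohesin also holds sister chromatids together, and Mki67 was lower in the same D2 libraries, with a log2 fold change of -5.64; its part in this list's values was not tested.

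The second comparison asks whether naloxone or DAMGO changed cadherin expression. No member was called for naloxone against control, DAMGO against control or naloxone against DAMGO, in edgeR or DESeq2, beside 0.0151, 0.0151 and 0.0303% of all tested genes in edgeR. By direction, 0.00757% of all genes rose and 0.00757% fell with naloxone, the same with DAMGO, and 0.00757% were higher and 0.0227% lower with naloxone than with DAMGO. DESeq2 called 0.00757% of all genes for naloxone and 0.0% for the other 2 contrasts. At an unadjusted edgeR p under 0.05 there were 5 of 72 members for naloxone (Pcdhb21, Pcdhb9, Pcdhgb1, Pcdha12 and Pcdha7), 2 for DAMGO (Cdh13 and Pcdha4) and 3 for naloxone against DAMGO (Pcdhgb2, Pcdha12 and Pcdha4), against 2.22, 2.4 and 2.12% of all tested genes. Both ligands were compared with the same control libraries. For the 15 unclustered members of at least 20 CPM the fitted intervals were narrow. Their 95% intervals reached from -0.36 to 0.32 in log2 for naloxone and from -0.37 to 0.31 for DAMGO, or 1.29-fold at the widest. The 16 clustered members at that level had intervals from -0.36 to 0.48 for naloxone and from -0.56 to 0.45 for DAMGO. All these intervals are for a ligand effect shared by both states. A change in 1 state only, or opposite changes in the 2 states, can lie outside them. They reflect the scatter among 6 libraries, which may be technical, and not that between cultures. The summed clusters changed by 0.11 ± 0.08 (Pcdha), -0.01 ± 0.07 (Pcdhb) and -0.03 ± 0.05 (Pcdhg) with naloxone and by 0.04 ± 0.09, -0.01 ± 0.07 and -0.06 ± 0.05 with DAMGO (log2, SE; edgeR adjusted p = 1.00 for each).

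Members were next ranked by the smaller of their ratios in the 2 states, at a mean of at least 5 CPM. With naloxone Cdh6, Pcdhb21 and Pcdhga6 ranked highest, and Pcdhb5, Pcdhgb6 and Pcdh18 the lowest. Cdh6 stood at 0.13 in D2 and 0.27 in NSC, and Pcdhb21 at 0.63 in D2 and 0.09 in NSC (log2 ratio to control). Pcdhb5 stood at -0.19 in D2 and -0.34 in NSC. With DAMGO Pcdhb21, Cdh6 and Pcdhb14 were highest and Pcdhgb1, Pcdhgb5 and Pcdh18 lowest, Pcdhgb1 at -0.26 in D2 and -0.22 in NSC. None was called, and the adjusted p was 1.00 for each (edgeR).

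Within a state each ratio rests on 1 library against 1, so no test was made. In D2 with naloxone the counting interval lay above 1 for 7 and below 1 for 8 of 60 members of at least 5 CPM, against 12.0 and 11.7% of all genes at that level. In D2 with DAMGO it was 4 above and 10 below of 60, against 8.87 and 9.1%. In NSC it was 2 above and 2 below of 48 for each ligand, against 3.98 and 5.41% for naloxone and 3.73 and 4.45% for DAMGO. As shares of members these were 11.7 and 13.3%, then 6.67 and 16.7%, and 4.17% in each direction for both ligands in NSC. In D2 the highest ratios with naloxone were those of Pcdhga12, Pcdhb21 and Pcdhb18 and the lowest those of Pcdhgb1, Pcdhb9 and Pcdh18. Pcdhga12 had 76 counts with naloxone and 57 in the control, a log2 ratio of 0.66; its D2 against NSC call was lost without the D2 naloxone library. Pcdhgb1 had 127 counts with naloxone and 222 in the control, a log2 ratio of -0.53. With DAMGO in D2 Pcdha9, Pcdh8 and Pcdh11x were highest, Pcdha9 at 0.50, and Pcdhga10, Pcdhga8 and Pcdhb9 lowest, Pcdhga10 at -0.42. In NSC with naloxone the ratios ran from -0.34 (Pcdhb5), with Pcdhb19 and Cdh10 next, to 0.47 (Pcdhga5), with Cdh6 and Pcdhgc5 next. In NSC with DAMGO they ran from -0.52 (Pcdhgb7), with Pcdhga2 and Pcdhgb6 next, to 0.53 (Pcdhga6), with Pcdhga5 and Pcdhb10 next. The plot of ligand ratios sets these beside the difference between states.

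**Figure D5:**
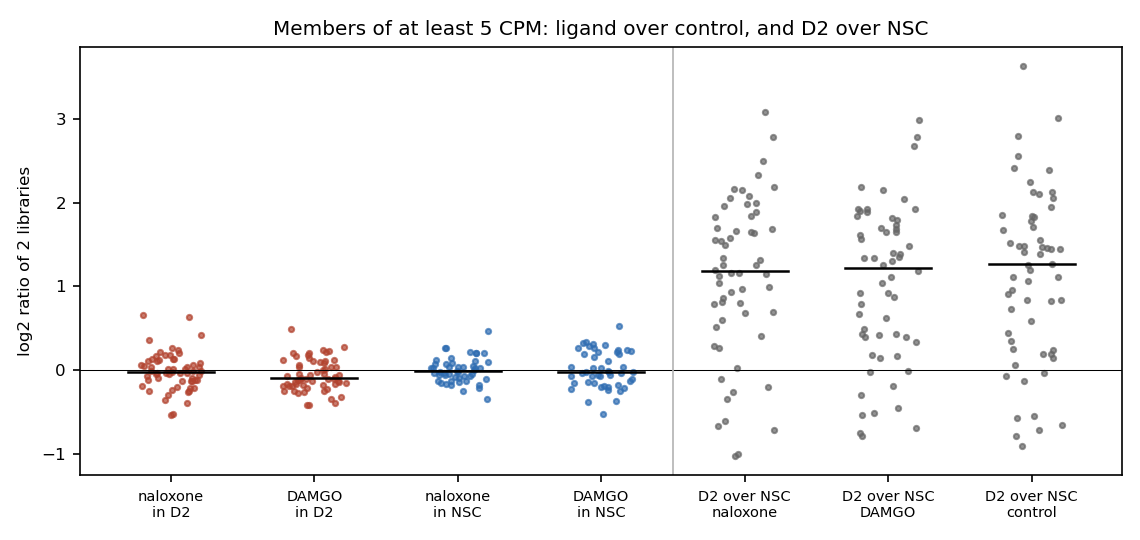
Log2 ratio of 2 libraries (vertical axis) for members of at least 5 CPM: each ligand over control within D2 (red) and within NSC (blue), and D2 over NSC within each ligand condition (grey); black lines are medians and points are spread sideways at random. Ligand ratios stay between -0.53 and 0.66, while the ratios of D2 over NSC reach above 3.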

How the data were processed

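Per the labels' protocols, RNA came from a Trizol extraction and the library kit was an Illumina TruSeq one, a kit known not to keep strand. Bowtie and RSEM on build mm10 are named in the submitters' processing notes; no version is stated for them, and no annotation or filter. The authors deposited an expected count, a TPM value and an FPKM value per gene and library. Deposited FPKM values were read only to check that they rank genes as TPM does. Symbols and coordinates came from GENCODE M21 on the same build, which matched 28756 of 29267 identifiers. Expected counts as deposited were rounded; genes averaging 10 or more counts entered the edgeR 4.0.16 fit (R 4.3.3) with TMM scaling, and p-values were adjusted over all 13216 genes. The model had 2 residual degrees of freedom. Alternatives used DESeq2 1.42.0, limma 3.58.1 and other settings (see the closing section). Within a state, ratios compare TMM-scaled CPM after adding a prior count of 2, on the log2 scale; their exact binomial 95% intervals cover counting error only. A count of 0 allows up to 3 counts, or 0.221 to 0.356 CPM.

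The members and gene lists were chosen with earlier results of these data known, including the lists of cadherin partners and chromatin regulators. Named unclustered members were the 6 of highest TPM, called changes of at least 2-fold at 5 CPM or more, and those not called. Named clustered members were the cluster sums, the 4 of highest TPM and the 2 largest changes each way per cluster. For ligands they were the 3 highest and 3 lowest, and for other lists the 2 largest changes and 2 of highest TPM. Cdh10, Cdh19, Cdh22, Cdh24, Pcdh7, Pcdh9, Pcdh11x, Pcdh17, Pcdh19 and Pkp4 were named beyond the rule after their values were seen, to account for each tested unclustered member. The fit was tested on simulated data with known changes and the scatter of these 6 libraries. It recovered 70.8% of 1.5-fold, 85.9% of 2-fold and 100% of 4-fold state changes. For naloxone it recovered 68.7, 79.1 and 92.1% of changes of the same sizes. Of 13118 genes in the state simulation 8 unchanged ones were called, and of 13126 in the naloxone simulation 20. Pcdhgb8 is not analysed here.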

Additional observations from a re-analysis of the deposited data

Results flagged for a closer look

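For 3 clustered genes the ligand ratio within D2 and within NSC had opposite signs, with both counting intervals off 1. Pcdhb19 with naloxone was at 0.21 (log2 ratio to control) in D2 and -0.25 in NSC. Pcdhgc3 with naloxone was at -0.089 in D2 and 0.049 in NSC. Pcdhgc4 with DAMGO was at 0.088 in D2 and -0.18 in NSC. Each ratio compares 1 library with 1, the difference between the states was not tested, and they are 3 of 92 pairs of a member and a ligand that were set side by side. The intervals cover counting error only.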

How the results depend on the processing

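No paired analysis was possible because the labels carry no replicate numbers and each group is 1 library; the ligand condition shared by 2 libraries is already a term of the model. Of the 72 tested members, 62 kept their call and direction under RLE or total-count scaling, other count filters, DESeq2, limma on log2(TPM + 1) or log2(TPM + 0.1), state alone, and without any single library; 10 lost or gained a call (Cdh10, Cdh13, Cdh20, Pcdh19, both Pcdha11 identifiers, Pcdhb13, Pcdhb15, Pcdhb21 and Pcdhga12) and 0 reversed. The number changed was 68, and 63 to 68 without 1 library, with 61 in DESeq2 and 70 with no filter. With each cluster as 1 row, 20 of 23 rows changed, of which 13 rose, and among the 15 tested members with whole counts 13 changed, 8 risen and 5 fallen; both settings count fewer genes. The summed clusters rose by 0.58 to 0.65 (Pcdha), 1.19 to 1.32 (Pcdhb) and 1.34 to 1.41 (Pcdhg) in log2 without 1 library. Leaving out C-type genes, an alternative chosen after seeing the data, gave 2.0 for Pcdha and 1.56 for Pcdhg, and leaving out Pcdhgc3 and Pcdhgc4 gave 1.53. The ligand counts stayed at 0 in every alternative run. The median log2 fold change of all genes was 0.01 under total-count scaling and 0.00 under TMM. With 1 library per group, members of few counts, such as most Pcdha genes, are limited by depth.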

Other observations

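2 identifiers carry the symbol Pcdha11, ENSMUSG00000007440 and ENSMUSG00000102206, and both were called as risen in D2. The first had 15, 29 and 30 counts in D2 (naloxone, DAMGO, control) and 19, 15 and 16 counts in NSC, and the second had 21, 18 and 31 counts in D2 and 17, 11 and 13 counts in NSC. Their log2 fold changes were 0.77 ± 0.30 and 1.02 ± 0.31 (SE), with edgeR adjusted p of 0.033 and 0.00988. The first call was lost in 7 alternatives and the second in 3, DESeq2 among both.

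The exons of 18 members overlap an annotated gene on the other strand. Among them are Pcdh8, over 436 bases, Pcdhb12, over 1927 bases, and Pcdhga10, over 2613 bases. The kit does not mark strand, so reads of the partners cannot be told apart.

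The abundance-weighted transcript length of Pcdhgc5 was 2291, 5777 and 5777 bases in the D2 libraries and 3602, 4147 and 4694 bases in the NSC libraries, so its TPM (4.68, 1.5 and 1.55 in D2 and 3.48, 3.13 and 2.19 in NSC) did not follow its counts.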
